A study of Hylyphantes graminicola with 5 samples.

Results

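*DH31_2*-rich cells are brain cells of the spider *Hylyphantes graminicola* with more than 100 unique molecular identifiers (UMIs, each counting 1 captured messenger RNA molecule) of *DH31_2* (evm.TU.CTG-674.24), a gene for a diuretic hormone precursor. They were looked for among kept cells, those with 500 to 60000 UMIs, at least 200 genes and a mitochondrial share under 40%. The rule found 126 such cells among 31147 kept cells (0.405%). The study made droplet libraries of adult brains, 3 from females and 2 from males, each from 35 to 40 pooled brains of animals of mixed age, with no treatment and no mutant. Female replicates 1, 2 and 3 gave 8, 15 and 33 *DH31_2*-rich cells, and male replicates 1 and 2 gave 39 and 31. Each library held 12269605 to 35943668 UMIs over 19195 genes. Kept cells of different libraries shared 88 barcodes, none of them with a *DH31_2*-rich cell. Since brains were pooled, a library stands for a mixture of animals, and tests over libraries measure the spread between such pools.

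Diuretic hormone 31 (DH31) is an arthropod relative of vertebrate calcitonin. In *Drosophila*, it acts through a G-protein-coupled receptor on the renal tubules and gut, and in the brain it is made by some clock neurons, where it bears on sleep and temperature preference. A peptidergic neuron makes its hormone as a precursor, which enters the endoplasmic reticulum (ER), is cut by signal peptidase, and is packed into dense core vesicles. The spider has a further DH31 precursor, *DH31_1* (evm.TU.CTG-308.2). The precursors *Elevenin_1* (evm.TU.CTG-1396.9) and *Elevenin_2* (evm.TU.CTG-147.17) carry elevenin, a neuropeptide first described in the sea hare *Aplysia* and absent from fruit flies. They are near-identical copies between which counts may be split, so they are summed wherever a cell is called elevenin positive.

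*DH31_2* was highly concentrated in few cells. The 126 cells held 95.3% of all *DH31_2* UMIs of kept cells, although 17% of the other kept cells had at least 1 UMI of it. Between libraries, the share of *DH31_2*-rich cells lay between 0.243% in female replicate 1 (Wilson 95% interval 0.123% to 0.478%) and 0.538% in male replicate 1 (0.394% to 0.735%), intervals that cover counting error only. *DH31_2* chose the cells, so its level is a description. It took up 442137, 393576 and 202345 counts per 1000000 UMIs (CPM) of the rich cells of female replicates 1, 2 and 3, and 331093 and 284727 CPM in male replicates 1 and 2. In other kept cells it stayed at 149.2 to 245 CPM in the 5 libraries.

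Among themselves, the 126 cells fell into a high and a low range, with no kept cell between 434 and 765 UMIs of *DH31_2*. In the high range, 57 cells held 765 to 26080 UMIs, with a median of 7644. The low range had 69 cells with 101 to 434 UMIs and a median of 137. Every library contributed to each range, with 5, 11, 12, 18 and 11 cells in the high range and 3, 4, 21, 21 and 20 cells in the low range, in the order of female replicates 1 to 3 and male replicates 1 and 2. *DH31_2* took a median of 55.8% of all UMIs of a cell in the high range and exceeded 50% in 35 of the 57 cells, against a median of 2.33% in the low range. Over all libraries, UMIs of all other genes had like medians in both ranges, 6158 in the high range and 6602 in the low range. Within libraries these medians differed in either direction. They were 5925 in the high and 11049 in the low range of female replicate 3, and 5140 and 2901 in those of female replicate 2. This split was made after the values were seen, and the values below for the 2 ranges carry no test. At the limit of the rule itself there was no gap, since the nearest cells inside had 101, 103, 103 and 104 UMIs and the nearest outside had 100, 99, 98 and 98.

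**Figure D1:**
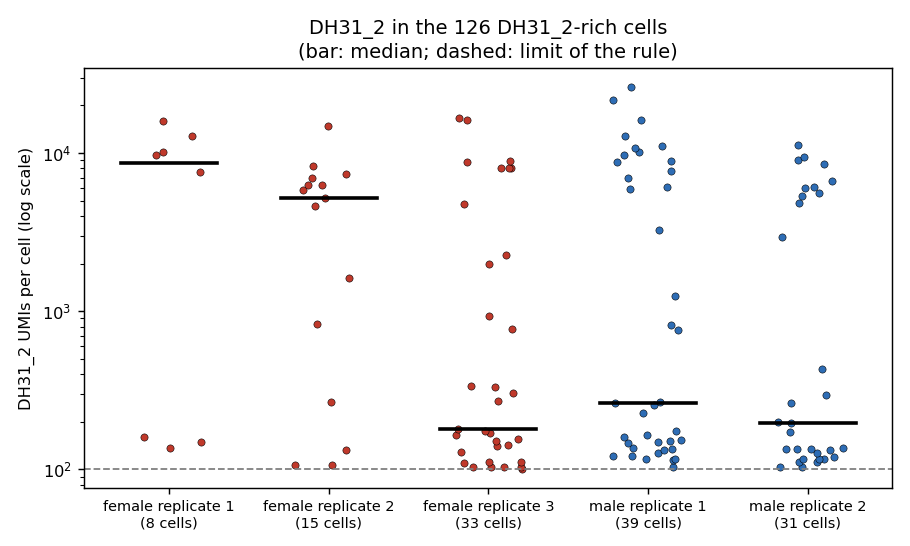
UMIs of *DH31_2* (log scale) in each of the 126 *DH31_2*-rich cells, by library. Points are cells (red for female and blue for male libraries), bars are medians and the dashed line is the limit of 100 UMIs. Each library has cells at 765 UMIs or above and cells at 434 or below, with none between.

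Elevenin set the ranges apart. All 57 cells of the high range had at least 10 UMIs of *Elevenin_1* and *Elevenin_2* together, with a lowest value of 36, a median of 387 and a highest of 1631. In the low range, 13 of 69 cells reached 10 UMIs and the median was 0. More than 100 UMIs were found in 49 of 57 cells of the high range and in 3 of 69 of the low range. Among other kept cells drawn to the same depth, 4.94% had at least 10 UMIs of the elevenin genes. Within the high range, the UMIs of *DH31_2* and of elevenin went together across cells, with a Spearman correlation of 0.838 over 57 cells from 5 libraries, a description of cells that *DH31_2* itself chose. The cells had a median of 17.9 *DH31_2* UMIs for each elevenin UMI, ranging from 6.93 to 45.98. In the low range the correlation was −0.17 over 69 cells.

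**Figure D2:**
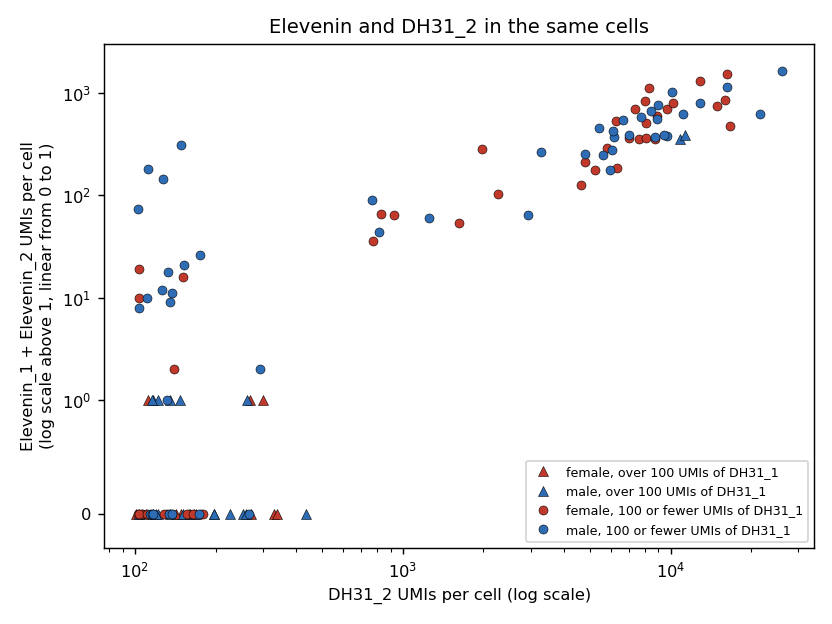
UMIs of *Elevenin_1* and *Elevenin_2* together against UMIs of *DH31_2* in each *DH31_2*-rich cell, on log scales (linear from 0 to 1 on the vertical axis). Triangles have more than 100 UMIs of *DH31_1*. All 57 cells of the high range lie at 36 elevenin UMIs or more, while 42 of the 69 cells of the low range lie at 0.

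The reverse did not hold. Of 261 kept cells with more than 100 elevenin UMIs, 52 were *DH31_2*-rich (19.9%), and these 52 made up 41.3% of the *DH31_2*-rich cells. A further 152 elevenin-rich cells had no *DH31_2* UMI at all. Cells with at least 10 elevenin UMIs made up 2.04% of kept cells with no *DH31_2* UMI, 3.66% of those with 1 to 10, 11.2% of those with 11 to 50, 16.3% of those with 51 to 75, 9.68% of those with 76 to 100, 23.8% of those with 101 to 150 and 20% of those with 151 to 200. None of the 12 cells with 201 to 500 UMIs had as many, which allows a share of up to 25%.

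*DH31_1* had the opposite distribution. More than 100 UMIs of it were found in 2 of 57 cells of the high range and in 31 of 69 cells of the low range, which gives 33 cells rich in both hormones. These were 26.2% of the *DH31_2*-rich cells and 3.25% of all *DH31_1*-rich cells. Summed over cells, *DH31_1* reached 19.3, 199 and 56.8 CPM in the high range of female replicates 1, 2 and 3 and 2080 and 3597 CPM in that of male replicates 1 and 2. In the low range the same libraries had 9831, 11631, 18592, 43164 and 53208 CPM, all above the 3095 to 3919 CPM of other kept cells. CPM of single genes are given here and below per 1000000 UMIs other than *DH31_2*. By doublet score, 5 of the 126 cells were among the 6% of highest scores of their library, 1 of them in the high range.

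Other precursors were found in fewer cells, some at shares near those of other kept cells drawn to the same depth. *PK_2*, a pyrokinin precursor, was at 10 UMIs or more in 20 of 57 cells of the high range, spread over all 5 libraries, and in 0 of 69 cells of the low range, which allows a share of up to 4.35%, beside 3.31% of the cells of the same depth. The gene for the insulin relative *Relaxin* reached 10 UMIs in 5 of the 57 cells and *Gad1*, whose enzyme makes the transmitter GABA, likewise in 5 of 57, and neither did so in the low range. *Mip*, a myoinhibitory peptide gene, showed the reverse, with 1 of 57 against 17 of 69 cells (9.26% at the same depth), as did *AstB* (evm.TU.CTG-578.5), its near-identical copy, with 0 of 57 cells (up to 5.26%) against 9 of 69. *Proc*, the precursor of the muscle-active peptide proctolin, was at 10 UMIs or more in 14 of 57 cells (24.6%) and 18 of 69 cells (26.1%), beside 22.5% at the same depth. For *sNPF*, the short neuropeptide F gene, these counts were 23 of 57 (40.4%) and 16 of 69 (23.2%), beside 28.4%. No other precursor or transmitter gene above 100 UMIs accompanied *DH31_2* in 4 of 57 and 17 of 69 cells.

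**Figure D3:**
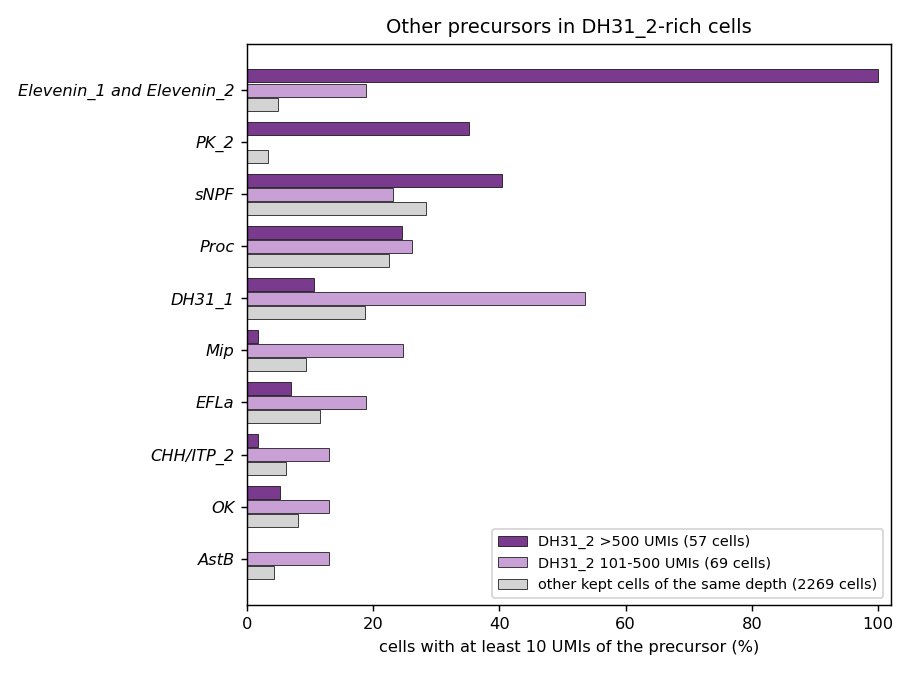
Percent of cells with at least 10 UMIs of 10 other precursors or precursor pairs, in *DH31_2*-rich cells of the high range (57 cells), of the low range (69 cells) and in other kept cells drawn to the same depth (2269 cells). Elevenin reaches 100% in the high range against 18.8% in the low range, and *DH31_1* 10.5% against 53.6%.

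The *DH31_2*-rich cells were then compared with all other kept cells of the same libraries, to see which genes besides the hormone set them apart. UMIs were summed per library over each group of cells, *DH31_2* was left out of the sums, and the sums were tested with the library as a block (edgeR's quasi-likelihood test, 5 libraries, Benjamini-Hochberg adjusted p under 0.05). Of 10457 genes tested, 3.37% were called, with 168 higher (1.61%) and 184 lower (1.76%) in *DH31_2*-rich cells, and the median log2 difference over all genes tested was −0.19. Of the genes called, 133 of 168 were higher and 173 of 184 were lower in 5 of 5 libraries. The balance shifted with the scaling, to 226 higher and 165 lower genes with the size factors of DESeq2 in edgeR. DESeq2, which also has another test, called 299 higher and 160 lower. *DH31_2*-rich cells were deeper, with a median of 6279 UMIs besides *DH31_2* against 2640 in other kept cells. Against other cells drawn to the same depth, 95 genes were higher and 33 lower of 6271 tested, and 122 of these 128 were also called against all other cells. Without male replicate 1, 181 genes were called, and without male replicate 2, 197.

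Both elevenin genes were among the genes that were higher. *Elevenin_2* had 41038, 33521 and 13894 CPM in *DH31_2*-rich cells of female replicates 1, 2 and 3 and 22625 and 21662 CPM in those of male replicates 1 and 2, against 766 to 1196 CPM in other kept cells. The groups did not overlap, and the log2 difference was 4.86 ± 0.18 (SE, edgeR adjusted p = 1.5e-10). *Elevenin_1* had 1531 to 14846 CPM in *DH31_2*-rich cells and 246 to 485 CPM in other kept cells (log2 difference 4.18 ± 0.37, edgeR adjusted p = 2.3e-06, or 0.058 with robust shrinkage). No other member of the list of 71 neuropeptide precursors passed the test upwards with all libraries. *Relaxin* had a log2 difference of 2.95 (edgeR adjusted p = 0.077) and passed without female replicate 2 (0.011) or female replicate 3 (0.024). Of its 587 UMIs in *DH31_2*-rich cells, 1 cell held 227 and another 153.

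Of that list, 55 precursors were tested. Of these, 2 were higher (3.64%, beside 1.61% of all genes tested) and 19 lower (34.5%, beside 1.76%). Their median log2 difference was −1.35, beside −0.19 over all genes tested. A further 11 precursors had no UMI in the *DH31_2*-rich cells. *Corazonin*, *GnRH* and *CCAP_1*, which carry consecutive identifiers on the contig CTG-40, had 5, 8 and 4 UMIs in all *DH31_2*-rich cells. *Corazonin*, a stress-related hormone in insects, had 0 to 13.9 CPM in *DH31_2*-rich cells and 115 to 483 CPM in other kept cells. *GnRH* had 0 to 20.2 CPM against 535 to 1010 CPM, a log2 difference of −6.59 ± 0.40 (edgeR adjusted p = 4.7e-09). *CCHa_2* had 4 UMIs in the *DH31_2*-rich cells of 5 libraries, or 5.82 ± 6.06 CPM (SD, n = 5), against 455 ± 301 CPM in other kept cells. *Tris* and *EH_2* had 2 UMIs each in *DH31_2*-rich cells, too few for a fold. Cells with more than 100 UMIs of these genes were rare among the 31021 other kept cells. They numbered 64 for *Corazonin*, 21 for *GnRH*, 26 for *CCAP_1*, 36 for *CCHa_2*, 12 for *Tris* and 15 for *EH_2*. A group of 126 cells may hold none of them, so these low sums alone do not mark out *DH31_2*-rich cells. Of the same list, *CCRFa_1*, *KYMGLa*, *FMRFa_1*, *FMRFa_4*, *Elevenin_3*, *GPA2_2*, *GPB5_2*, *NTL* and copies of *Calcitonin*, *RYa* and *CCAP* were lower too. Other kept cells with more than 100 UMIs of these genes numbered from 0 for *GPB5_2* to 1040 for *CCAP_3*. They were 9 for *FMRFa_1*, 12 for *Calcitonin_1*, 17 for *GPA2_2*, 27 for *KYMGLa*, 99 for *FMRFa_4*, 118 for *CCRFa_1* and 155 for *Elevenin_3*. The share of lower precursors thus rests in part on genes that few cells hold. Single cells weighed on some sums of the lower precursors, since 1 cell held 92.7% of the *RYa_3* UMIs and 1 cell 91.7% of the *Elevenin_3* UMIs of all *DH31_2*-rich cells. The calls of *CCAP_3* and *NTL* were lost in 4 of 5 fits that left out 1 library (adjusted p from 0.0068 to 0.256 and from 0.0087 to 0.168 over the 5 fits), and those of *RYa_2* and *RYa_3* in 2 of 5.

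**Figure D4:**
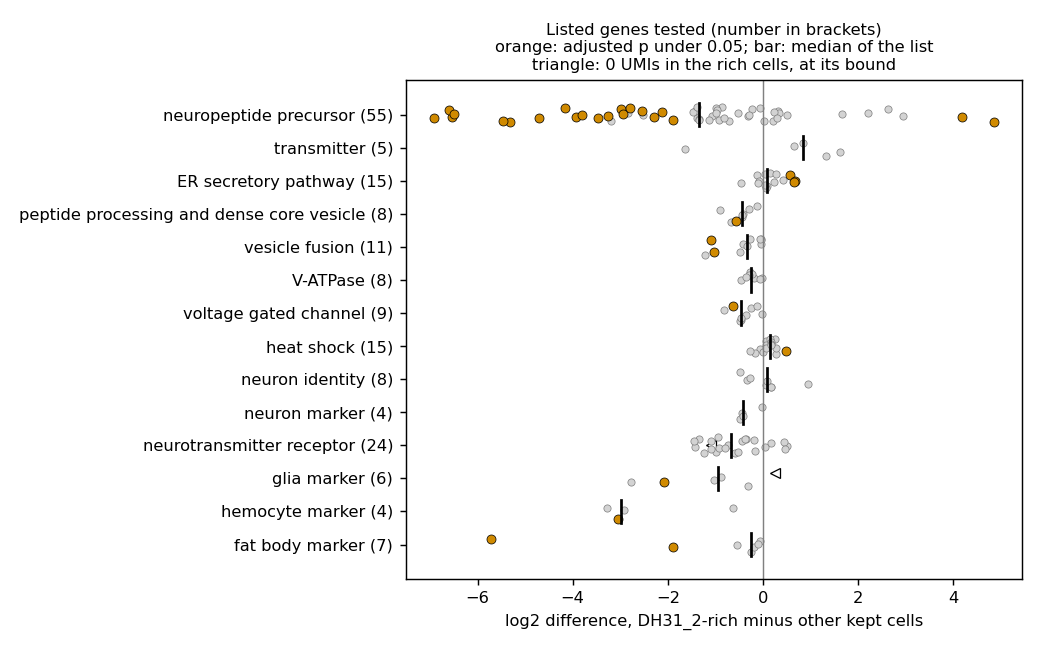
Log2 difference between *DH31_2*-rich and other kept cells for every tested gene of 14 lists (rows, with the number tested). Orange points passed the test, bars are list medians and triangles are genes with 0 UMIs in *DH31_2*-rich cells, drawn at the bound that 3 UMIs allow. The precursors spread widest, from *CCAP_1* at −6.92 to *Elevenin_2* at 4.86.

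Genes of the early secretory pathway were among the higher ones. *SERP2* (evm.TU.CTG-1003.2), a small stress-associated protein of the ER membrane, had 2188, 2349 and 1209 CPM in *DH31_2*-rich cells of female replicates 1, 2 and 3 and 2033 and 1529 CPM in those of male replicates 1 and 2, against 478, 591, 562, 773 and 603 CPM in other kept cells. All 5 libraries were higher, with a log2 difference of 1.76 ± 0.14 (edgeR adjusted p = 7.8e-07). *Vkor* (evm.TU.CTG-1019.10), a vitamin K epoxide reductase subunit and thus an ER enzyme, had 172 to 267 CPM in *DH31_2*-rich cells and 82.5 to 113 CPM in other kept cells (log2 difference 1.26 ± 0.17, edgeR adjusted p = 0.00024). In the list of 15 ER secretory genes, 0 were lower and the median was 0.09, beside −0.19 over all genes tested. There were 3 higher genes (20%, beside 1.61% of all genes tested). These were *Spase12_S1*, a subunit of signal peptidase (482 to 755 CPM against 335 to 477 CPM, log2 difference 0.66 ± 0.13, edgeR adjusted p = 0.0053), *bai*, a cargo receptor of transport vesicles (log2 difference 0.66 ± 0.16, edgeR adjusted p = 0.037) and *Tapdelta_S1*, a subunit of the complex beside the translocon (log2 difference 0.56 ± 0.14, edgeR adjusted p = 0.043). The calls of *bai* and *Tapdelta_S1* were lost in 4 and 5 of the 5 fits that left out 1 library (adjusted p up to 0.146 and 0.193). Both were also lost against other cells drawn to the same depth (edgeR adjusted p = 0.147 and 0.103), where *Spase12_S1* kept its call. With no replicate block, *bai*, *Spase12_S1* and *Tapdelta_S1* all lost theirs (edgeR adjusted p = 0.159, 0.209 and 0.321). The chaperone *Hsc70-3* had a log2 difference of 0.15 (edgeR adjusted p = 0.72).

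Further genes that were higher belong to no list. *RpS6*, a protein of the small ribosomal subunit, had 753 to 1115 CPM in *DH31_2*-rich cells and 364 to 751 CPM in other kept cells (log2 difference 0.92 ± 0.13, edgeR adjusted p = 0.00029, higher in 5 of 5 libraries). *RpS20_S1*, of the same subunit, had 1768 to 3216 CPM and 1179 to 1780 CPM (log2 difference 0.77 ± 0.12, edgeR adjusted p = 0.001). The ABC protein gene *ABCF2* had a log2 difference of 0.86 ± 0.13. Of genes for actin-binding proteins, *TPM* (tropomyosin) was higher by 1.02 ± 0.16 and *cib_S2* (thymosin beta) by 0.87 ± 0.13 on the log2 scale, each in 5 of 5 libraries. *VAT1L_S3* was higher by 0.92 ± 0.16. Of the genes without a name, evm.TU.CTG-1386.6 had 393 to 905 CPM in *DH31_2*-rich cells and 99.0 to 222 CPM in other kept cells, and evm.TU.CTG-330.2 had 121 to 237 CPM and 47.5 to 80.4 CPM.

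Most of these genes were higher in the high range than in the low range. *SERP2* had 2849 ± 319 CPM in the high range and 693 ± 172 CPM in the low range (SD, n = 5 libraries each), beside 601 ± 107.5 CPM in other kept cells. For *Vkor* the values were 314 ± 89.9 CPM in the high range, 81.4 ± 56.1 CPM in the low range and 97.2 ± 12.17 CPM in other kept cells. *RpS6* had 1295 ± 440 CPM in the high range and 534 ± 209 CPM in the low range, and *TPM* 486 ± 130 CPM and 156 ± 77.0 CPM. For *SERP2*, *Vkor*, *Spase12_S1*, *RpS6*, *RpS20_S1* and *TPM*, the high range lay above the low range in 5 of 5 libraries. *VAT1L_S3* differed from this pattern, with 200.1 ± 100.2 CPM in the high range and 177 ± 86.3 CPM in the low range, the high range being above in 3 of 5 libraries. Of genes plotted beside them, the potassium channel gene *slo_S2* averaged 769.98 CPM in the high range, 1301 CPM in the low range and 1659 CPM in other kept cells. These genes were named for their difference between all 126 cells and the rest, so their split by range is a description.

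**Figure D5:**
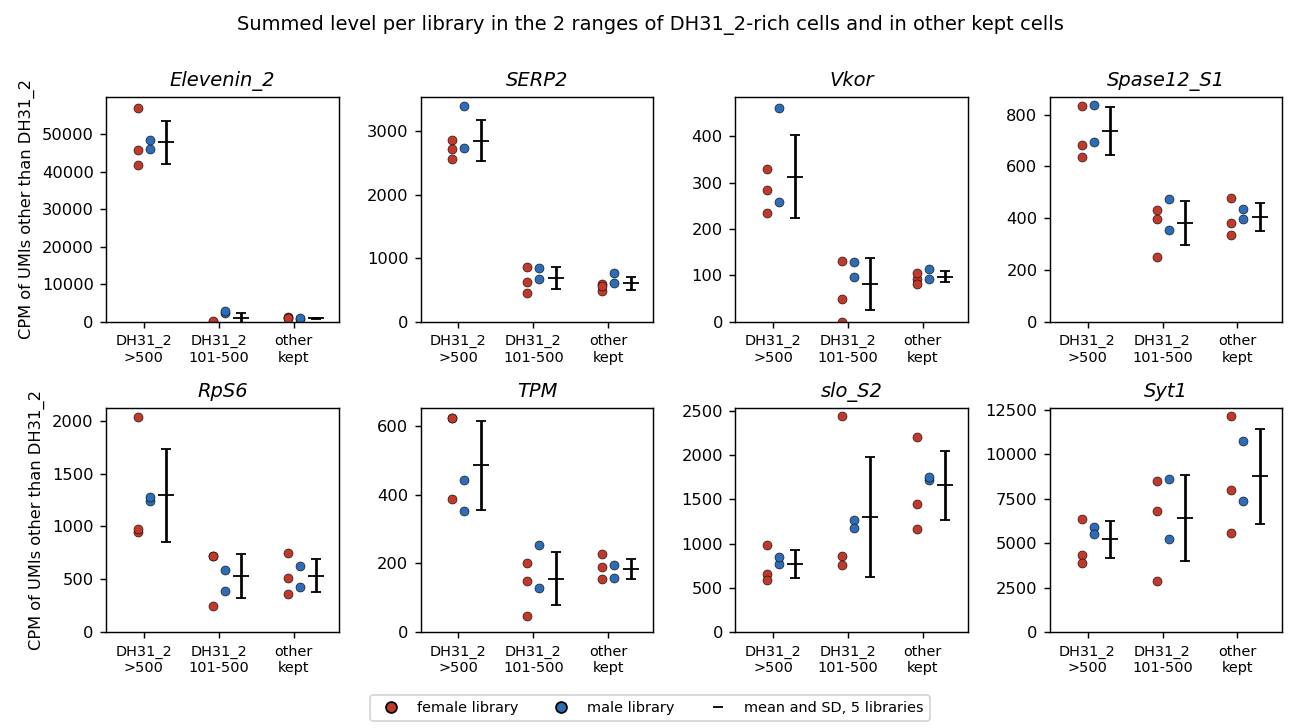
CPM of UMIs other than *DH31_2* for 8 genes in *DH31_2*-rich cells of the high range, of the low range and in other kept cells. Points are libraries (red female, blue male) and bars are mean and SD over 5 libraries. *SERP2* lies at 2554 to 3384 CPM in the high range, 449 to 865 CPM in the low range and 478 to 773 CPM in other kept cells.

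In the list of 11 vesicle fusion genes, 2 were lower, 0 higher and all 11 had a log2 difference below 0 (median −0.33, beside −0.19 and 1.76% lower over all genes tested). The lower ones were *cpx_S1* (complexin, a clamp of vesicle fusion), with 56.6 to 195 CPM in *DH31_2*-rich cells and 149.2 to 374 CPM in other kept cells (log2 difference −1.02 ± 0.19, edgeR adjusted p = 0.0055), and *Nsf2*, an ATPase that takes apart fusion complexes (log2 difference −1.09 ± 0.22, edgeR adjusted p = 0.01). Of 9 voltage-gated channel genes, 1 was lower, *slo_S2*, a calcium-activated potassium channel, with 698 to 1394 CPM in *DH31_2*-rich cells and 1169 to 2208 CPM in other kept cells (edgeR adjusted p = 0.0066). Of the 8 tested genes for peptide processing and dense core vesicles, *Rab3-GEF_S2* was lower (edgeR adjusted p = 0.046) and the median was −0.44. *Cadps*, needed for the release of dense core vesicles, had a log2 difference of −0.44 (edgeR adjusted p = 0.14). A log2 difference below 0 in every gene was not particular to the vesicle fusion list. Among other lists, it also held for the 9 channel genes, the 8 peptide processing genes, the 8 V-ATPase genes and 4 neuron marker genes. In the ER secretory list 11 of 15 genes lay above 0, and in the heat shock list 12 of 15. None of the 8 V-ATPase genes, 5 tested transmitter genes, 8 tested neuron identity genes, 24 tested transmitter receptor genes or 12 tested genes of contig CTG-674, where *DH31_2* lies, was called, with list medians of −0.25, 0.84, 0.08, −0.67 and −0.27. Among 15 heat shock genes, 1 was higher (6.67%, beside 1.61% of all genes tested). This was *L2EFL_S2* (log2 difference 0.49 ± 0.12, edgeR adjusted p = 0.034), a call lost in 5 of 5 fits that left out 1 library (adjusted p up to 0.149). *Proc* reached 181 CPM in *DH31_2*-rich cells of female replicate 1 and 55422 to 80532 CPM in those of the other libraries, against 8829 to 10238 CPM in other kept cells, and was not called (edgeR adjusted p = 0.22), though it was without female replicate 1 (edgeR adjusted p = 8.0e-07), as was *DH31_1* (edgeR adjusted p = 0.030, or 0.029 without female replicate 2, against 0.085 with all libraries).

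As a check of the label, *brp*, *nSyb*, *elav* and *Syt1*, genes of neurons, were summed. At least 1 UMI of them was found in 124 of 126 *DH31_2*-rich cells (98.4%) and in 96.2% of other kept cells, and the 4 genes had log2 differences of −0.49 to −0.02, with no call. Their summed level was 5584 to 8750 CPM in *DH31_2*-rich cells and 6799 to 13614 CPM in other kept cells. Of the markers of other cells, 8 for glia summed to 9.43 to 55.5 CPM against 67.7 to 246 CPM, 5 for hemocytes to 5.74 to 60.6 CPM against 40.5 to 110 CPM, and 7 for fat body to 153 to 294 CPM against 304 to 1048 CPM. As shares of cells with a UMI, these were 21.4% against 12.8% for glia, 11.9% against 8.54% for hemocytes and 73.8% against 58.0% for fat body, in *DH31_2*-rich cells of a median of 10436.5 UMIs against other kept cells of 2641. The hemocyte marker *Hml_1* and the glia marker *SPARC_2* had no UMI in *DH31_2*-rich cells. Called lower were *Gat* (glia, log2 difference −2.08), *Ahcy* (fat body, −1.89), *AcCoAS* (fat body, 1 UMI in *DH31_2*-rich cells) and *NATT4_1* (hemocytes, 2 UMIs). Against neuron-like clusters alone, 224 genes were higher and 139 lower. The unnamed gene evm.TU.CTG-898.35, at −5.12 against all other cells, was then at 0.41 and not called. The mitochondrial share had a median of 9.86% in *DH31_2*-rich cells (7.32% in the high range and 13.2% in the low range) and 20.8% in other kept cells. It was taken over all UMIs, those of *DH31_2* among them, which lowers it where *DH31_2* is high. The part of the mitochondrial share in the gene differences was not tested. With cells under 20% alone, the mean *DH31_2* level was 347926 CPM in *DH31_2*-rich cells, against 330776 CPM with all of them.

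When all kept cells were clustered without the listed genes, 45 of the 126 cells, and 39 of the 57 of the high range, lay in a single neuron-like cluster of 906 cells (5.0% of it). A further 11 lay in a cluster of 109 deep cells with a median of 14487 UMIs, which was left unnamed. In all, 109 cells were in neuron-like clusters, 13 in unnamed ones, 3 in fat body-like and 1 in glia-like ones. No cluster was called hemocyte-like. Yet single cells of the high range lay in unnamed clusters with hemocyte markers at 6312 and at 2942 CPM of all UMIs. In the cluster of 906 cells these markers were at 12.3 CPM. In glia-like and fat body-like cells, which should lack the hormone, 11.4% of 865 cells had at least 1 UMI of *DH31_2* at a median depth of 1972 UMIs, and in other neuron-like cells 17.4% did at 2686.5 UMIs. These 865 cells include 4 of the 126, and a share of cells with a UMI was read as background. Clustered on their own, the 126 cells gave 3 sub-groups. These sub-groups were found in the values and carry no test. The sub-group of 38 cells held 33 of the high range and no cell rich in *DH31_1*. *Relaxin*, *Elevenin_1* and *Elevenin_2* were its leading named genes, though *Relaxin* reached 10 UMIs in only 3 of the 38 cells. The sub-group of 71 cells held 12 of the high range and 28 cells rich in *DH31_1*, and its leading genes were *Mip*, *EFLa*, *AstB* and *OK*. The sub-group of 17 deep cells, at a median of 20520 UMIs, had *Proc* as its leading named gene and 12 cells of the high range. The sub-groups depended on the setting. Coarser clustering gave groups of 39 and 87 cells. Finer clustering gave 38, 37, 33 and 18 cells, and 13 of the 18 had at least 10 UMIs of *Proc*. With the listed genes kept, the groups had 33, 83 and 10 cells, of which 5, 26 and 1 had at least 10 UMIs of *Proc*.

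*DH31_2*-rich cells were next set against 982 *DH31_1*-rich cells, with more than 100 UMIs of *DH31_1* and at most 100 of *DH31_2*, the nearest group that makes a hormone of the same family. Both DH31 genes chose these cells and were left out of the sums. Of 4393 genes tested, 260 were called (5.92%), with 209 higher (4.76%) and 51 lower (1.16%) in *DH31_2*-rich cells (edgeR's quasi-likelihood test, library as a block). Of these, 171 of 209 were higher and 49 of 51 lower in 5 of 5 libraries. Without male replicate 1, 136 genes were called, and without male replicate 2, 156. Both comparisons share the *DH31_2*-rich cells. When cells rich in both DH31 genes were left out, 226 were higher and 100 lower. The *DH31_2*-rich cells were deeper here too, with a median of 6279 UMIs besides *DH31_2* against 4570.5 in *DH31_1*-rich cells. No draw to the same depth was made for this comparison, so the part of depth in it was not tested.

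*Elevenin_2* had 13894 to 41038 CPM in *DH31_2*-rich cells and 42.9 to 338 CPM in *DH31_1*-rich cells (log2 difference 7.39 ± 0.61, edgeR adjusted p = 1.0e-04). *Elevenin_1* differed by 6.56 ± 0.79 on the log2 scale (edgeR adjusted p = 0.0013, or 0.075 with robust shrinkage). *SERP2* had 1209 to 2349 CPM in *DH31_2*-rich cells and 484 to 779 CPM in *DH31_1*-rich cells (log2 difference 1.85 ± 0.14, edgeR adjusted p = 9.5e-05). *Vkor* (1.26 ± 0.17), *TPM* (1.21 ± 0.18), *RpS6* (0.98 ± 0.12), *RpS20_S1* (0.74 ± 0.12) and *Spase12_S1* (0.67 ± 0.11) were higher on the log2 scale too, as were *Atg12* (0.83 ± 0.13), a ubiquitin-like protein of autophagy, and *Non3* (1.23 ± 0.22), a factor of ribosome production. In the ER secretory list, 2 of 15 tested genes were higher (*Spase12_S1* and *Tapdelta_S1*), or 13.3% beside 4.76% of all genes tested. The list median was 0.03, beside −0.04 over all genes tested. The call of *Tapdelta_S1* was lost in 3 of 5 fits that left out 1 library (adjusted p up to 0.12). The unnamed gene evm.TU.CTG-281.11-evm.TU.CTG-281.12 had 55.8 to 113 CPM in *DH31_2*-rich cells and 0 to 1.96 CPM in *DH31_1*-rich cells, and all 26 *DH31_2*-rich cells with a UMI of it were in the high range.

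Among the 33 precursors tested here, 2 were higher (6.06%, beside 4.76% of all genes tested) and 7 lower (21.2%, beside 1.16%). The lower ones included *Calcitonin_2* (10.1 to 641 CPM in *DH31_2*-rich cells, 611 to 10225 CPM in *DH31_1*-rich cells, log2 difference −3.40 ± 0.60, edgeR adjusted p = 0.0068) and *RYa_3* (−3.69 ± 0.58, edgeR adjusted p = 0.0036). Both calls were lost with robust shrinkage (adjusted p = 0.169 for *Calcitonin_2* and 0.136 for *RYa_3*) and with no replicate block (0.109 and 0.55), and that of *Calcitonin_2* with a limit of 50 UMIs (0.221). Few cells carried these genes. *Calcitonin_2* exceeded 100 UMIs in 19 of 982 *DH31_1*-rich cells, with up to 18886 in a cell, and in 1 of 126 *DH31_2*-rich cells. *RYa_3* did so in 12 of 982, with up to 8093 in a cell, and in 1 of 126. By smallest p, the first of the lower genes was *FGRL1_S2*, a fibroblast growth factor receptor relative, with 60.6 to 181 CPM in *DH31_2*-rich cells and 313 to 452 CPM in *DH31_1*-rich cells (log2 difference −1.62 ± 0.19, edgeR adjusted p = 0.0013). *LACH_S16*, of the lachesin family of cell adhesion proteins, had a log2 difference of −1.36 ± 0.17, and the small GTPase gene *RHES_S2* one of −1.05 ± 0.15. *FKB12*, *Ktl_S1*, *RGRF1*, *AcCoAS_S5* and *PKHG7* had log2 differences of −1.06, −0.72, −0.80, −0.80 and −1.05.

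Between the sexes, *DH31_2*-rich cells made up 0.243%, 0.315% and 0.429% of kept cells in the female libraries and 0.538% and 0.381% in the male libraries. The ranges overlapped, and the difference of means was −0.13 percentage points (exact permutation test, two-sided, p = 0.4). It was −0.052 without male replicate 1, −0.209 without male replicate 2 and −0.034 with a limit of 200 UMIs. With 3 against 2 libraries the smallest p of this two-sided test is 0.2. That value was reached with a limit of 2% of the UMIs of a cell. The shares were then 0.273%, 0.482% and 0.338% in the female libraries and 0.538% and 0.577% in the male libraries. With every cell thinned to 2000 UMIs and a limit of 20, the shares were 0.898%, 1.09% and 0.795% in the female libraries and 0.976% and 1.06% in the male libraries (p = 0.6 in the same exact permutation test), with 1068, 2481 and 2160 shallower female cells and 2227 and 2748 shallower male cells left out. Of the *DH31_2*-rich cells, 62.5%, 60% and 30.3% were elevenin-rich in the female libraries and 41% and 38.7% in the male libraries, a difference of 11.1 percentage points (exact permutation test, two-sided, p = 0.6). It was 5.28 without female replicate 1, 6.53 without female replicate 2 and 21.4 without female replicate 3. Of 2777 genes tested in *DH31_2*-rich cells between female and male libraries, 0 were called (0% in each direction, 64 at an unadjusted p under 0.05), and DESeq2 called 1. Other settings called 0 to 8. *Elevenin_2* had a female minus male log2 difference of 0.38 and *Elevenin_1* of 0.83. The test of whether a sex difference in *DH31_2*-rich cells departs from that in other kept cells called 0 of 11834 genes (0%, 315 at an unadjusted p under 0.05, 0 with DESeq2). Without male replicate 1 it called 4. These counts do not show that the sexes are alike, since few cells stand behind each sum, 8 in female replicate 1.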

How the data were processed

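Single-cell libraries of adult brains (3 female, 2 male) were analysed from raw UMI counts, which the authors produced with CellRanger against their own genome and gene models and deposited per library without normalization. The submitters' processing notes name Cell Ranger. No correction for ambient RNA or doublets was applied, and doublet scores entered only an alternative. Cells were kept as the report states. Mitochondrial genes were the 37 whose identifiers do not begin with evm. Gene names came from the study's tables. UMIs were summed per library and cell group, and genes passing filterByExpr were tested in R 4.3.3 with edgeR 4.0.16 (TMM, glmQLFit, glmQLFTest, Benjamini-Hochberg at 0.05). The newer quasi-likelihood fit was used (prior degrees of freedom 11.7, 6.16, 8.91 and 7.26 in the 4 comparisons), since the older default gave an infinite value in 2 of them. This was decided after the fits were seen. DESeq2 1.42.0 was an alternative. The tests were tried on simulated counts first. Clusters and doublet scores came from scanpy 1.11.5 with leidenalg 0.10.2, a glia-like, hemocyte-like or fat body-like cluster needing at least 3 raised markers and a neuron-like one a summed neuron marker level above a limit set after a first look. Cells drawn to the same depth were taken by bins of UMIs besides *DH31_2*. The named genes were the listed genes, the genes of contig CTG-674 and, per comparison, up to 10 called genes with a name and 2 without in each direction, by smallest p. Members and lists were chosen with earlier results of these data known. Precision is set by the UMIs behind each sum, and a group at 0 was bounded at 3 UMIs. Counts are of transcript 3′ ends, and levels are not compared between genes.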

Additional observations from a re-analysis of the deposited data

Results flagged for a closer look

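Barcodes outside the limits on cells were not used above, and 28 of them also held more than 100 UMIs of *DH31_2*. A signal of the hormone in data outside the comparisons is what singled them out. Of these 28, 17 had a mitochondrial share of 40% or more, 22 had fewer than 200 genes and 1 had more than 60000 UMIs. They held 115 to 651 UMIs of *DH31_2* (median 176.5) of a median of 865 UMIs in all. In 2 of them *DH31_2* was over 500 UMIs, within the gap between the ranges of the kept cells. Of the 28 barcodes, 22 had at least 10 UMIs of the elevenin genes, as against 13 of 69 in the kept cells of the low range, a difference that was not tested.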

How the results depend on the processing

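For *DH31_2*-rich against other kept cells, 168 genes were higher and 184 lower. The calls in both directions came to 641 with the older quasi-likelihood default, 641 with a limit of 200 UMIs of *DH31_2*, 128 against cells of the same depth, 134 with no replicate block and 181 to 257 without 1 library. Against *DH31_1*-rich cells, the 260 calls became 458 with a limit of 200 UMIs, 100 with no replicate block and 136 to 230 without 1 library. Between the sexes, 0 calls became 2 with the older default, 1 with robust shrinkage, 1 with DESeq2, 1 with no filter, 3 and 2 with limits of 200 and 50 UMIs, 8 with the replicate block and 0 to 2 without 1 library. Same-numbered samples of the sexes correlated at −0.046 and 0.079 in their deviations from the mean of their sex. With 2 male libraries, these deviations mirror each other in the males. The values therefore cannot tell whether the numbers pair the samples. The sex difference set against other kept cells gave 39 with the older default, 1 with robust shrinkage and 0 to 4 without 1 library. A limit of 200 UMIs raised the elevenin-rich share to 71.0%, from 41.3%, and the mean *DH31_2* level to 437535 CPM, from 330776 CPM, by leaving out cells of low *DH31_2*. Of 1088 alternative values of 66 gene results, 978 kept direction and side of the threshold, 88 lost and 19 gained the call and 3 reversed. These were *NPF* at −6.58 with a limit of 200 UMIs, evm.TU.CTG-898.35 at 0.41 against neuron-like cells, and *Proc* against *DH31_1*-rich cells at −0.57 without cells rich in both. *Elevenin_1* had an adjusted p of 0.058 with robust shrinkage against other kept cells and 0.075 against *DH31_1*-rich cells. The share of *DH31_2*-rich cells stayed lower in females under every alternative, with p of 0.2 to 0.8 where one could be computed (exact permutation test). With 3 against 2 libraries 0.2 is the smallest p that this test can give. Depth limits precursors at a few UMIs.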

Other observations

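A gene without a name, evm.TU.CTG-1084.5, was singled out after its values were seen. In 2 *DH31_2*-rich cells of female replicate 3 it made up 25067 of 37021 UMIs and 15747 of 25989 UMIs of the cell, and with that 11.7% of all UMIs besides *DH31_2* in the 33 rich cells of that library. Its UMIs exceeded 100 in 7 of the 126 *DH31_2*-rich cells, in female replicate 3 and male replicate 1, and in 221 other kept cells (0.712%), with up to 23474 in a cell. The precursor *TK* was likewise carried by 1 rich cell with 16846 UMIs of it, and *NPF* by 3 cells of the low range with more than 100 UMIs each.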
